A study of Homo sapiens with 7 samples.

Results

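The regions described here are the isolated CTCF peaks found only in pyridostatin (PDS)-treated K562 cells. A peak was taken when it lay on chromosomes 1 to 22 or X, when no peak of control cells overlapped it or lay within 1 kb of it, and when no other peak of PDS-treated cells lay within 1 kb. The rule chose 2515 of the 32917 peaks of PDS-treated cells (percentage chosen 7.64), whereas 7031 peaks (21.4%) overlapped no control peak at all. With the lists exchanged, the same rule chose 5344 of the 33094 control peaks (16.1%), a larger share. The presence of a peak in one list and its absence from the other, which depend on the fold enrichment and p-value of the peak calls, therefore chose the regions. Because the members were selected on these calls, the values of the calls serve only to describe, rank and group peaks, and not as a test.

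K562 is an established human erythroleukaemia line. The 7 ChIP-seq samples were 2 CTCF immunoprecipitations and 1 nonspecific IgG sample from untreated cells, and 2 CTCF and 2 IgG samples from cells kept with 10 μM PDS for 24 h. The study asked whether a small molecule that stabilises G-quadruplexes (G4s, 4-stranded structures of guanine-rich DNA) changes where CTCF is found. Reads were aligned to hg19 and the peaks of each condition were called once, on both CTCF samples together, so that there was 1 list per condition, with no value per replicate, no read count and an unknown depth. From these lists no SD and no test over samples can be given. In them the effect of PDS cannot be told apart from differences between the calls, including the IgG samples used (whether the control call used more than the 1 sample listed is not known) and the step of the peak grid (50 bp in the PDS list and 60 bp in the control list).

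CTCF is a zinc finger protein that binds a long, directional DNA motif with several of its fingers. It halts cohesin as this ring complex extrudes chromatin, and the motifs at the anchors of a loop usually point toward each other. CTCF sites are found at promoters, within genes and between genes, and many of them are bound in nearly every cell type.

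Reference sequences of 8 peaks are shown first, because the motif results below turn on whether a window holds such letters. They are the 200 bp at the centre of the peak, from the plus strand of GRCh37 (hg19), for the peaks of smallest p-value in each of 3 kinds, of which a few windows were left out. In the first 4, the capitals mark the 15-base CTCF consensus known from ChIP-exo, which points right in the LDB2 window and left in the other windows. The next 2 hold a G4 motif, that is, 4 G runs, each 3 or more long, separated by loops 1 to 7 nt in length (C runs on the opposite strand), and the capitals mark it. The last 2 held neither, so they are without capitals.
chr2:114361701-114361900, intergenic near WASH2P: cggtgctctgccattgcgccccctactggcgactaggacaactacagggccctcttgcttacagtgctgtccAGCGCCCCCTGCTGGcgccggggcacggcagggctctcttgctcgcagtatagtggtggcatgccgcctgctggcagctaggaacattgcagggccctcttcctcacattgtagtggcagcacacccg
chr1:182004676-182004875, intergenic near ZNF648: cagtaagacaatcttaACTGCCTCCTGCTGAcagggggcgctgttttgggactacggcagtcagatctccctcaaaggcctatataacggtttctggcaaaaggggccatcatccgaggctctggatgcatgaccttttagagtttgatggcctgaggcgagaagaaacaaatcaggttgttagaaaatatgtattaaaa
chr4:16796651-16796850, intron of LDB2: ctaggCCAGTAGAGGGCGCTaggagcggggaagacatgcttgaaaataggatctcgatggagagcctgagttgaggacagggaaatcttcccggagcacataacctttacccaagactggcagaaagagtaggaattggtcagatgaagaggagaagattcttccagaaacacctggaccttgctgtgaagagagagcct
chr4:158125826-158126025, promoter of GRIA2: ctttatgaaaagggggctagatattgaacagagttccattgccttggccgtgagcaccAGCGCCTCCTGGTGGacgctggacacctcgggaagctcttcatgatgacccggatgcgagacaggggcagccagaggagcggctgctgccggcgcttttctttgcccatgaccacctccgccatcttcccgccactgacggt
chr10:73189751-73189950, intron of CDH23: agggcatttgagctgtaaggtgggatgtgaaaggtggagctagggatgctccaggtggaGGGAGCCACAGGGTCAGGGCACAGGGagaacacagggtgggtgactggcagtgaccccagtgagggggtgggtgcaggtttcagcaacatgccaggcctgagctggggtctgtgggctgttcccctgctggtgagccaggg
chr7:76142351-76142550, exon of UPK3B: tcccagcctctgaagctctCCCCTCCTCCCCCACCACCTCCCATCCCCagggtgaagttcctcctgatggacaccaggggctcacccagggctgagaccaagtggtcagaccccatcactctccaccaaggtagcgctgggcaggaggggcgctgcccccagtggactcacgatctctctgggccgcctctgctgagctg
chr18:24049051-24049250, intron of KCTD1: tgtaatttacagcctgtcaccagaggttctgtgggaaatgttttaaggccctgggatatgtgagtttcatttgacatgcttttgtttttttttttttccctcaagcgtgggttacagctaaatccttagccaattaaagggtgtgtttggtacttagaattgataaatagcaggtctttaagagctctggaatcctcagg
chr14:76922726-76922925, intron of ESRRB: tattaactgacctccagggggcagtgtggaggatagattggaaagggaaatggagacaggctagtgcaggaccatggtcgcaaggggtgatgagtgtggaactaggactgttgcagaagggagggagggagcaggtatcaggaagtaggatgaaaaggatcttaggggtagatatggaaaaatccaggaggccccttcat

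Within their own list the isolated PDS-only peaks were narrow and weak. Their median width was 100 bp, the narrowest width of the list, which 1392 of them (55.3%) had, and the widest was 850 bp. Their median fold enrichment over IgG was 13.8 (quartiles 9.83 and 16.1), against 16.7 for the whole PDS list. The median p-value of the peak calls was 2.31e-06. All peaks of the list had a p-value of at most 9.997e-06, and 2479 of the 2515 (98.6%) had a p-value above the median of the list. Of the other 4510 PDS-only peaks, 63.0% had the narrowest width and 99.1% a p-value above that median. Among the isolated peaks found only in control cells, 35.0% had the narrowest width of the control list. Of these, 87.8% had a p-value in the weaker part of that list, above its median. At the threshold of the rule, the 61 members with a control peak more than 1000 and up to 1200 bp away had a median fold of 12.6. The 23 peaks that the rule left out for a control peak more than 800 and up to 1000 bp away had a median fold of 9.39.

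A few peaks stood apart by fold. The peak at chr1:17766201-17766400 lay 128 bp from the gene start of RCC2, a regulator of mitosis, and its fold of 137.6 was the second highest, rank 2, of all peaks of PDS-treated cells. Its window held a G4 motif and 84.5% GC. The next highest members had folds of 58.5 and lay at chr10:43362251-43362350 near LINC02623 and at chr17:20224201-20224350 in an intron of a long noncoding RNA gene. The other members among the 10 highest had folds of 36.5 to 43.2 and included peaks inside FZD8 (a Wnt receptor gene), ACTR3C and TBL1X (which encodes a subunit of a corepressor complex). The intergenic ones had TMEM191A (3376 bp), AC010760.1 (15931 bp), WASH2P (20631 bp) and FAM138D (26794 bp) as the nearest gene start. Their ranks by p-value in the list ran from 14469 (WASH2P) and 16742 (RCC2) to 31777 (FZD8), whereas the members had a median rank of 27359 and a smallest rank of 11151.

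The members of smallest p-value were different peaks. The first was chr18:24048951-24049350 in an intron of KCTD1, with a p-value of 1.08e-11, a fold of 14.3 and rank 11151 by p-value in the list. Of the 10 members of smallest p-value 4 were promoter peaks. They lay 83 bp from the start of LRP5, a Wnt coreceptor gene, 467 bp from that of COL22A1, a collagen gene, and at noncoding gene starts inside FASTK (584 bp) and KAT8, a histone acetyltransferase gene (998 bp). The remaining ones lay near LMO1 (a LIM-domain factor of T cell leukaemia) and in introns of CDH23 (a cadherin of hair cell tip links), ESRRB (an orphan nuclear receptor gene), MKRN2 and KRTAP5-AS1.

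Gene context was read at the centre of each peak from protein-coding and long noncoding RNA genes of GENCODE version 44 on GRCh37, with a promoter defined as the 1 kb on either side of a gene start. Of the 2515 peaks, 1229 (48.9%, Wilson 95% interval 46.9 to 50.8%) lay in introns, 753 (29.9%) between genes, 282 (11.2%) at promoters and 251 (9.98%) in exons. Promoters make up 2.41% and exons 4.35% of the sequenced bases, introns 55.0% and intergenic DNA 38.3%. The same was measured in 2 other sets, 19940 isolated peaks of the PDS list that overlapped a control peak (shared peaks) and 5344 isolated peaks found only in control cells. These intervals reflect the number of peaks only, since peaks of 1 list are no replicates.

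**Figure D1:**
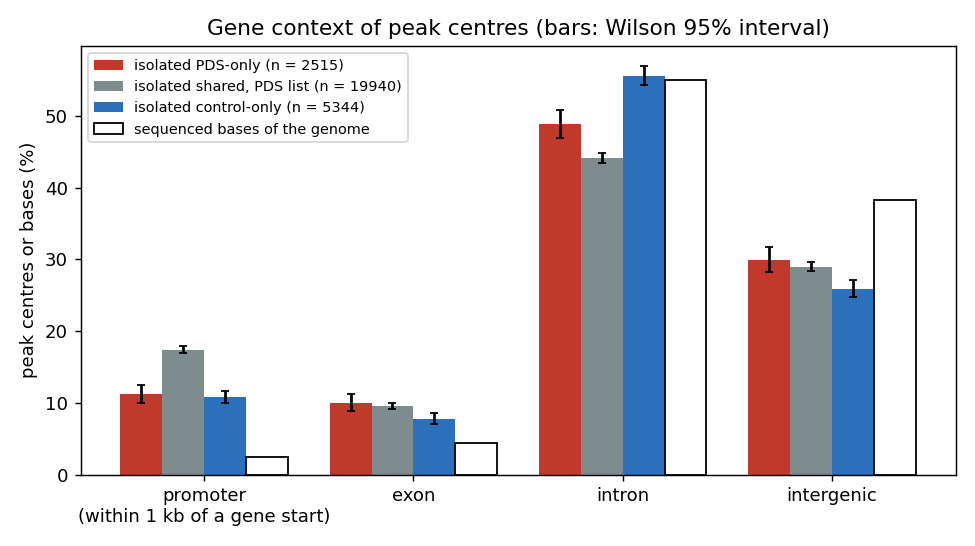
Share of peak centres (%, vertical axis) by gene context for the 3 sets of isolated peaks, with Wilson 95% intervals as error bars, beside the share of sequenced bases (white bars). Promoters held 11.2% of the PDS-only peaks and 17.4% of the shared peaks, and introns held 48.9% and 44.1%.

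Compared with isolated shared peaks, the PDS-only peaks lay less often at promoters and more often in introns. The promoter share was lower by 6.19 percentage points (difference -6.19, Newcombe 95% interval -7.48 to -4.80) and the intron share was higher by 4.75 points (2.68 to 6.82). The intervals of the exon difference (-0.740 to 1.74 points) and of the intergenic difference (-0.870 to 2.92 points) included 0. Compared with isolated control-only peaks, the promoter shares of 11.2% and 10.8% differed by 0.453 points (-1.002 to 1.97). The intron share was lower than in the control-only peaks (difference -6.69 points, -9.05 to -4.32), and the exon share (2.196 points, 0.856 to 3.61) and the intergenic share (4.04 points, 1.92 to 6.20) were higher. The promoter share of members with a fold at or above the list median was 6.60%, and with a promoter of 2.5 kb it was 18.0% of all members. The other sets were not recomputed for either choice.

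The median distance from a PDS-only peak to the nearest gene start was 15369 bp (quartiles 4410 and 39172 bp), against 12289 bp for shared and 21952 bp for control-only peaks. To a protein-coding start it was 28641 bp. A gene start lay within 10 kb of 964 peaks (38.3%) and within 100 kb of 2318 (92.2%). Of the 282 promoter peaks, 123 were within 250 bp of a start, 209 had a protein-coding start within 1 kb, and 23 of these had protein-coding starts on both strands. The promoter peaks were GC-rich (median 63.0%) and had a median fold of 10.6, below the 14.0 of intron peaks and the 14.2 of intergenic peaks.

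The consensus and a protein-coding start within 1 kb met in 7 members. The peak at chr4:158125851-158126000 lay 592 bp from the start of GRIA2, an AMPA-type glutamate receptor gene, and the nearest shared peak was 965750 bp away. The peak at chr5:140187251-140187400 lay 704 bp from the start of PCDHA4, one of the clustered protocadherin genes, whose alternative promoters are known to bind CTCF. The third was at chr16:67977901-67978050, 58 bp from the start of LCAT, which encodes the cholesterol-esterifying enzyme of plasma, and 1350 bp from a shared peak. It also held a G4 motif. The other 4 lay at RCVRN (recoverin, a calcium sensor of photoreceptors), LRRC8A (an anion channel subunit gene), RIPOR3 and LMBRD1 (a gene of lysosomal cobalamin transport), at 14 to 888 bp from the start and with folds of 6.41 to 19.5.

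The bodies of 1777 of the 38690 genes held at least 1 member, 164 held at least 2 and 28 at least 3. The genes that held one were long, with a median length of 71.9 kb against 14.9 kb for all genes. Long genes span more bases in which any peak can lie. The length was not computed for the other sets, so it shows no preference of the members. GSE1 and PTPRN2 held 5 each, and RSPH14, CDH23 and KAZN held 4 each. GSE1 encodes a protein of histone deacetylase complexes, PTPRN2 a phosphatase-like receptor of secretory vesicles, RSPH14 a radial spoke protein and KAZN a desmosome-associated protein. GSE1, PTPRN2 and KAZN are very long (507, 1049 and 1225 kb), and KAZN also held 23 isolated shared peaks, GSE1 15 and PTPRN2 5. RSPH14, which lies in the crowded part of chromosome 22 described below, held 2 isolated shared peaks and 1 control-only peak. It spans only 85.6 kb, so that its 4 members came to 4.67 per 100 kb, against 0.987 in GSE1. Some genes with 3 members were denser, such as KLHL22 (5.52) and GRK7 (5.36).

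Of all 20098 protein-coding genes, 1862 (9.26%) had a member in the gene or within 5 kb, and the density in these regions was 1.32 members per Mb. Of 25 erythroid genes 3 had one (12%, 1.60 per Mb). These were RUNX1 with 2 members and BCL11A and KLF1 with 1 each, genes of transcription factors of blood formation and globin control. Of 22 genes for CTCF, cohesin and their partners 4 had one (18.2%, 1.51 per Mb), namely STAG1 and STAG3 (cohesin subunits), SMC1A (a core cohesin subunit) and HDAC8 (the SMC3 deacetylase). None of 15 genes for helicases and related proteins that act on G4s had one. Of 24 long genes of neuronal adhesion and synapses 9 had one (37.5%), with a median gene length of 1261 kb and a density of 0.340 per Mb. They were ASIC2 and RBFOX1 with 2 each and CDH4, CNTNAP2, DLG2, DSCAM, NLGN1, NRXN3 and PTPRT with 1 each. Of 515 zinc finger genes 22 (4.27%) and of 415 olfactory receptor genes 3 (0.723%) had one, at 0.960 and 0.436 per Mb. The isolated shared peaks, which are more numerous (7.03 against 0.887 per Mb of the genome), had 10.9 per Mb at all protein-coding genes. In the lists they had 13.6 per Mb at erythroid, 9.43 at CTCF and cohesin, 4.98 at G4 helicase, 1.76 at neuronal, 10.1 at zinc finger and 3.63 at olfactory receptor genes.

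Distances to the nearest shared peak were measured between edges. The median was 18000 bp for the PDS-only peaks (95% interval of the median 16500 to 19550 bp, quartiles 5400 and 54250 bp), against 18400 bp from one isolated shared peak to the next shared peak and 35160 bp for control-only peaks. The rule sets this distance in part, and with an isolation distance of 500 bp the median of the members was 10400 bp. The PDS-only peaks more often had a shared peak close by, since 24.1% of them (22.5 to 25.8%) had one within 5 kb, against 18.3% of shared and 11.4% of control-only peaks. At the long end, 86.2% had one within 100 kb, against 89.1% of shared peaks and 77.2% of control-only peaks. A shared peak lay within 1 Mb of 2493 of the 2515 members (99.1%).

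**Figure D2:**
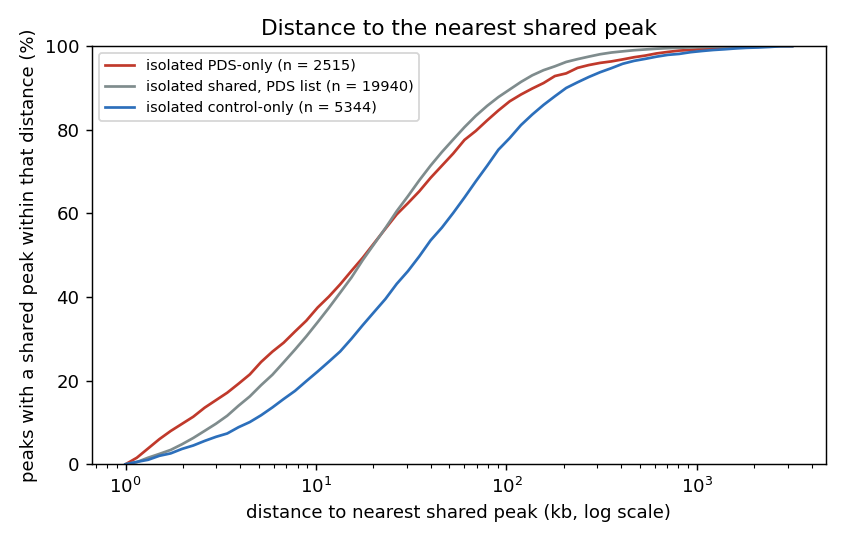
Cumulative share of peaks (%, vertical axis) with a shared peak within a given distance (kb, horizontal log axis) for the 3 sets of isolated peaks. The PDS-only curve lies above that of shared peaks at short distances, where 24.1% against 18.3% of peaks have one within 5 kb, and below it at 100 kb (86.2% against 89.1%). The control-only curve lies below the PDS-only one at both.

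The 3 members farthest from any shared peak, chosen after their values were seen, were more than 2 Mb from one. They lay at chr5:45797101-45797200 (2165450 bp away), chr13:73633751-73633850 in an intron of KLF5 (2159850 bp) and chr11:98326401-98326550 (2129100 bp), the last of which was 565203 bp from CNTN5, the nearest protein-coding start. None of the 3 windows held the consensus, a matrix match or a G4 motif. The nearest control peak of any kind was 758220, 219430 and 560050 bp away.

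The members were sparse along the genome. The median distance from one to the next was 203850 bp (quartiles 71450 and 566450 bp), and 818 (32.5%) had another within 100 kb, against 86.9% of the isolated shared and 44.9% of the control-only peaks. These sets differ in size, and their shares are therefore set side by side without a test. The share was 9.07% among the 485 members with a fold at or above the list median and 18.3% among the 1123 wider than 100 bp, groups that hold fewer peaks. Of 3053 bins of 1 Mb, 1361 held a member, 707 of them exactly 1, and 55 held 5 or more. Those 55 bins held 328 members (13.0%).

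The bins with most members adjoined each other on chromosome 22. The bin from 23 to 24 Mb held 15 and included BCR (the fusion partner of ABL1 in K562), RSPH14, GNAZ and RAB36, and the bin from 22 to 23 Mb held 13 and included PRAME, a cancer-testis antigen gene, TOP3B, VPREB1 and ZNF280B. Both were crowded in either list, with 160 and 154 PDS peaks and 132 and 137 control peaks of all kinds. From 20 to 24 Mb there were 37 members, 35 of them with another within 100 kb. Their median fold was 7.86, none held the consensus, and 4 (10.8%) had a match to the CTCF matrix described below, against 29.1% of all other members. Copy number was not measured, and its part in this cluster was not tested. The third bin, 67 to 68 Mb of chromosome 16, held 8 members at genes such as LCAT, PARD6A, KCTD19 and ATP6V0D1, as did 3 to 4 Mb of chromosome 19.

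**Figure D3:**
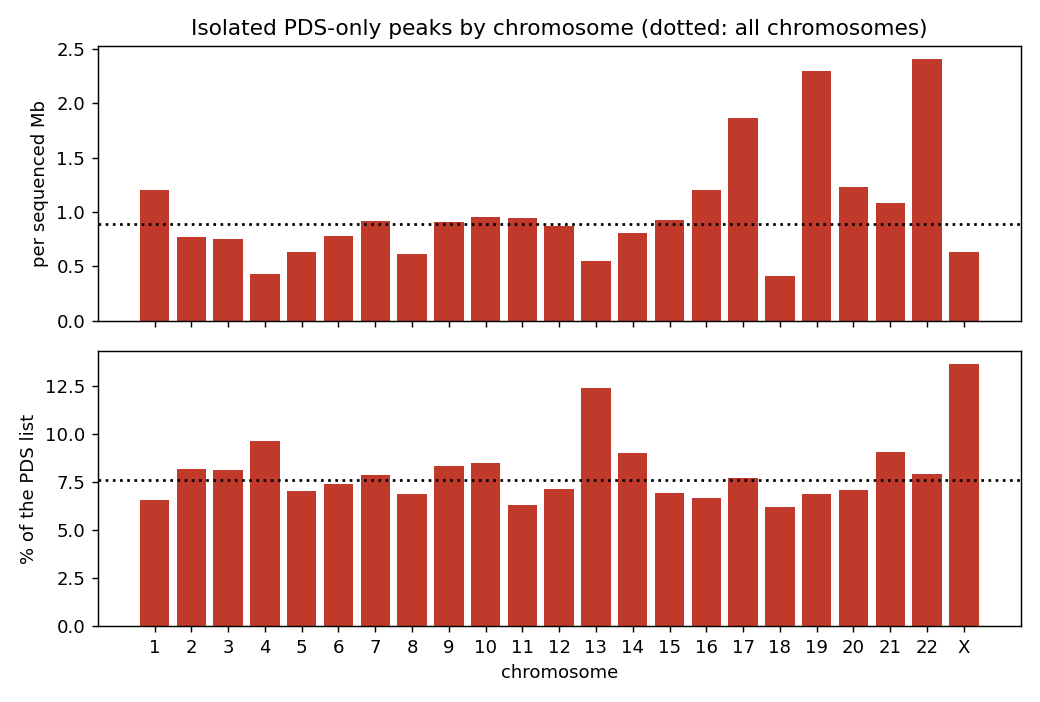
Number of isolated PDS-only peaks per sequenced Mb (upper panel) and as a percentage of all peaks of PDS-treated cells (lower panel) on each chromosome, with the value over all chromosomes as a dotted line. Density is highest on chromosomes 22 (1.52 per Mb without 20 to 24 Mb), 19 and 17, whereas the percentage of the list is highest on chromosomes X and 13.

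Over all chromosomes there were 0.887 members per sequenced Mb. Chromosomes 22 (2.41), 19 (2.29) and 17 (1.86) had the highest density and chromosomes 18 (0.415) and 4 (0.426) the lowest. The first place of chromosome 22 rested on the cluster at 20 to 24 Mb, since 37 of its 84 members lay there and the other 47 came to 1.52 per Mb, below chromosomes 19 and 17. The isolated shared peaks were densest on the same chromosomes, 19 (19.3 per Mb), 17 (14.7 per Mb) and 22 (13.6 per Mb). As a share of the list the members were most frequent on chromosome X (95 of 696 peaks, 13.6%) and chromosome 13 (53 of 427, 12.4%), and least frequent on chromosome 18 (31 of 499, 6.21%). The isolated shared peaks also took a larger share of the list on chromosomes X (73.7%), 13 (75.6%) and 18 (74.7%) than on all chromosomes (60.6%).

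The sequence of the peaks was not used by the rule. The CTCF consensus was found in the 200 bp windows of 148 members (5.88%, 5.03 to 6.87%), compared with 11.96% of isolated shared peaks, 12.1% of control-only peaks and 0.154% of all 200 bp tiles of the genome. The difference was -6.07 points (-7.04 to -4.99) from shared and -6.26 points (-7.50 to -4.96) from control-only peaks. A position matrix of 25 bases, built from the isolated shared peaks, was used as a more sensitive search, with a score exceeded by 1% of genome tiles as the threshold. It matched 724 members (28.8%, 27.1 to 30.6%), 43.5% of the shared peaks it was built from and 42.6% of the control-only peaks, which it had not seen (difference from control-only peaks -13.8 points, -16.0 to -11.6). Among the 8 windows printed above, the 4 with the consensus and that of ESRRB had a matrix match, whereas those of CDH23, UPK3B and KCTD1 had none. A match is a likeness to these letters and not evidence of binding.

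Hence the isolated PDS-only peaks held CTCF motifs less often than isolated peaks of the other sets but far more often than genome tiles. Those tiles were not matched for GC content. The members also held CTCF motifs more often than the other 4510 PDS-only peaks, which were not isolated. Of those, 19 (0.421%) held the consensus and 4.19% had a matrix match, so that the difference was 5.46 points (4.58 to 6.46) for the consensus and 24.6 points (22.8 to 26.5) for the matrix. These other peaks lay close to shared peaks, at a median distance of 400 bp. The 485 members with a fold at or above the list median had the consensus in 9.69% and a matrix match in 37.1%. The other sets were not recomputed under that cut, so how the differences depend on fold was not tested.

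Matrix matches were more frequent among members of small p-value, large width and large distance from shared peaks. The matrix share was 40.4% (28.2 to 53.9%) of the 52 members with p-values up to 1e-08, 34.9% of 166 up to 1e-07, 32.7% of 591 up to 1e-06 and 26.5% of 1706 up to 1e-05. The interval of this last band (24.5 to 28.6%) just touched that of the first band. By the p-values of each list, the share of shared peaks fell from 45.6% in the first band to 36.5% (34.5 to 38.5%) in the last. That of control-only peaks fell from 50.3% to 38.0% (36.2 to 39.9%), so the fall was not particular to the members. The sets are placed side by side here without a conclusion. The p-values helped to choose the members, and those of control-only peaks come from a separate call. By width the matrix share was 24.3% (22.1 to 26.6%) of the 100 bp members, 31.2% of those of 150 bp and 41.4% (36.3 to 46.6%) of wider ones. By distance it was 21.8% (18.7 to 25.2%) of members within 5 kb of a shared peak and 42.4% (37.3 to 47.6%) of the 347 members more than 100 kb away, and the consensus share of these 347 was 14.1% (10.8 to 18.2%). The consensus share showed no such order by p-value (5.77%, 6.02%, 7.78% and 5.22% from the smallest to the largest) or by width (4.67%, 7.87% and 6.32%). The shares of control-only peaks at these distances were 32.7% and 51.0% for the matrix and 17.6% for the consensus, and those of isolated shared peaks were 40.1%, 51.9% and 17.1%. By width the matrix share of isolated shared peaks was 32.1%, 37.8% and 45.2%, in the same order as in the members.

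**Figure D4:**
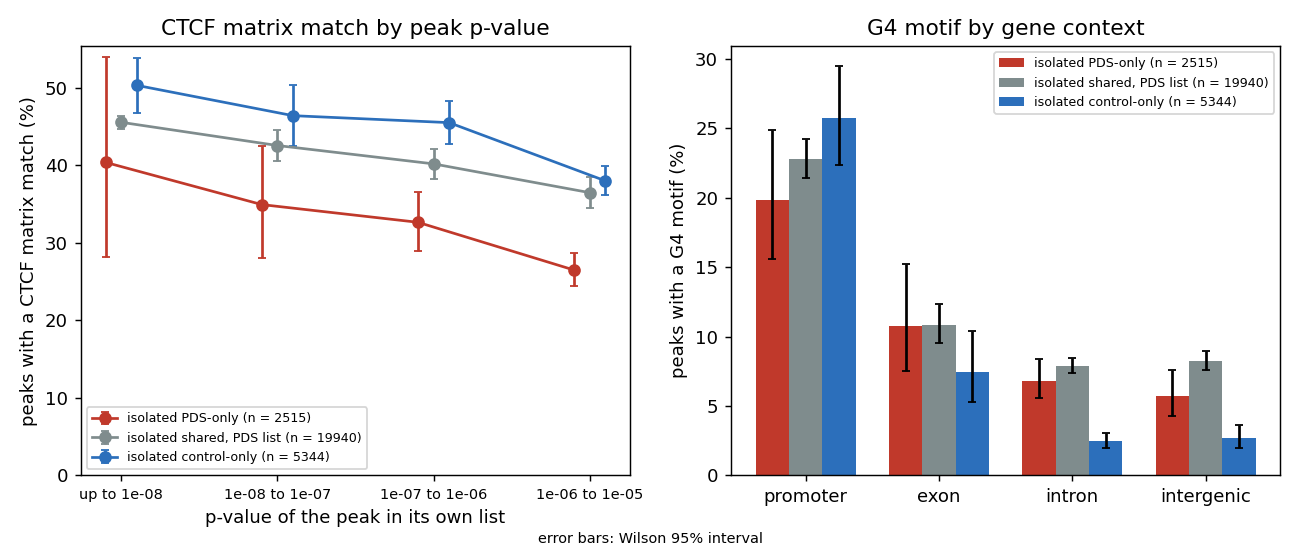
Left, share of peaks with a match to the CTCF matrix (%) by p-value of the peak in its own list. Right, share with a G4 motif (%) by gene context. Error bars are Wilson 95% intervals. The PDS-only points of the left panel fall from 40.4% to 26.5%, and G4 motifs were most frequent at promoters in all 3 sets.

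G4 motifs were found in the windows of 210 members (8.35%, 7.33 to 9.50%), in 10.9% of isolated shared peaks, 5.41% of control-only peaks and 2.61% of genome tiles. The share was thus lower than in shared peaks (difference -2.52 points, -3.63 to -1.30) and higher than in control-only peaks (2.94 points, 1.74 to 4.22). Among members the motif was most frequent at promoters (56 of 282, 19.9%), followed by exons (10.8%), introns (6.83%) and intergenic DNA (5.71%). Control-only peaks had it in 25.7% at promoters and in 2.46% of intron and 2.67% of intergenic peaks. Both the consensus and a G4 motif were held by 12 members, and the consensus share was 5.71% of members with a G4 motif and 5.90% of those without. Members with and without a G4 motif had a matrix match in 29.0% (23.3 to 35.5%) and 28.8% (27.0 to 30.6%), respectively. A total of 1642 members (65.3%) had neither a matrix match nor a G4 motif, as did 50.8% of isolated shared peaks.

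The GC content of the windows moved with these shares. Its median was 53.5% in the members, 54.0% in shared peaks, 42.0% in control-only peaks and 40.0% in genome tiles. In the 2 kb around the centre the medians were 48.4%, 48.8% and 40.4%. The number of CpGs per window had a median of 3 in members, 4 in shared and 2 in control-only peaks. The part of base composition in the G4 shares and in the CTCF motif shares was not tested.

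The position of the motif within a peak was looked at after the shares had been seen. Consensus sites of the members were not centred. Their density was 11.5 per 1000 peaks in the first 25 bp on either side of the centre, 26.6 per 1000 at 75 to 100 bp and 5.17 per 1000 at 125 to 150 bp, against a genome mean of 0.417 in steps of this size. In shared peaks it was highest at the centre (44.2 per 1000), with a second maximum at 75 to 100 bp (34.9), and in control-only peaks it was 35.9 at the centre, 29.4 at 50 to 75 bp, 31.1 at 75 to 100 bp and 14.8 at 100 to 125 bp. Narrow peaks of the other sets looked more like the members. Shared peaks of 100 or 150 bp had 18.6 sites per 1000 at the centre and 29.1 at 75 to 100 bp, and control-only peaks of 120 or 180 bp had 23.4 and 31.7. The members of 100 bp had 10.1 and 29.5.

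**Figure D5:**
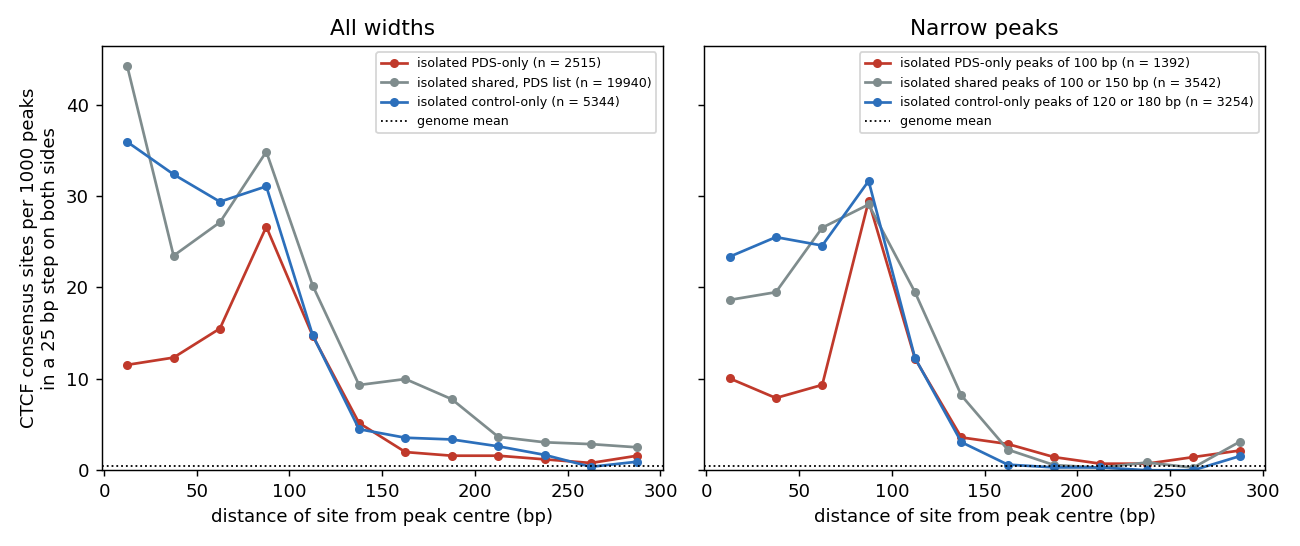
Number of CTCF consensus sites per 1000 peaks (vertical axis) in 25 bp steps of distance from the peak centre (bp, horizontal axis), both sides together, for all isolated peaks (left) and narrow ones (right). The dotted line is the genome mean. The PDS-only curve is highest at 75 to 100 bp, with 26.6 sites per 1000 peaks, and so are the curves of all 3 narrow sets.

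The displacement had a direction. Of 224 consensus sites within 200 bp that did not coincide with the peak centre, the centre lay on the 5′ side of the motif as written for ChIP-exo in 63 (28.1%, 22.6 to 34.3%) and on the 3′ side in 161. In all isolated shared peaks the 5′ share was 41.5% and in control-only peaks 29.2%. In narrow shared peaks it was 22.8% (19.1 to 27.0%) and in narrow control-only peaks 20.1%, so the direction was not particular to the members. Relative to the nearest shared consensus site, the motif of the 148 members was convergent in 36, in tandem in 72 and divergent in 40 (24.3%, 48.6% and 27.0%), and control-only peaks had 25.6%, 44.8% and 29.6%.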

How the data were processed

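CTCF ChIP-seq of K562 cells (7 samples) gave 1 peak list for untreated and 1 for PDS-treated cells, which the authors called with PePr on both CTCF samples over IgG. The submitters' processing notes name Bowtie2 2.2.3, SAMtools, deepTools 2.0 and hg19. The sample labels describe single-end reads and the methods paired-end libraries. The stated cutoff of 0.05 for p is far above the largest p-value in the lists, 9.997e-06. For each peak the authors deposited a score (not used), the fold enrichment (ratio) over the IgG of its own condition, a p-value and a q-value (not used). Folds and p-values were used as deposited, for description, ranking and subsets inside 1 list. P-values also formed the bands in which motif shares of the sets were set side by side, and those of control-only peaks come from a separate call, so that equal p-values need not mean equal signal. The lists hold no counts, so the depth is unknown.

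Gaps were measured between peak edges, and an overlap of 1 bp or more made a peak shared. In the lists, 24 PDS peaks and 25 control peaks lay on other sequences and could not be members. Gene context and distances to genes used GENCODE v44 lifted to GRCh37 (protein-coding and lncRNA genes). Motifs were searched on both strands of GRCh37 in 200 bp windows. The 15-base consensus is that of the introduction of the study. The matrix started from 2384 consensus sites of isolated shared peaks, was refined 3 times and ended with 3470 sites, and its threshold came from every 50th of 14178079 genome tiles (283572 tiles). Interval searches, motif searches and intervals were tested on simulated data.

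Printed windows follow the order of p-values within each kind, without chromosome 8, without a window that touches an untranslated region (LRP5) and, for brevity, without those at TAFA5 and LMO1. Genes were named by rule as the 10 members of highest fold and the 10 of smallest p-value, members with the consensus within 1 kb of a protein-coding start, the 5 genes holding most members and the 3 fullest 1 Mb bins, together with the genes of the erythroid, CTCF and cohesin, and neuronal lists that had a member. The 3 members farthest from a shared peak, the bin on chromosome 19 and the genes named with them are outside this rule and were chosen after their values were seen. The members, gene lists and comparisons were chosen with earlier results of these data known. The non-isolated set, the breakdowns by p-value, width and distance, GC in 2 kb, the position and orientation of sites and the chromosome 22 region were added after values had been seen. Wilson and Newcombe 95% intervals cover counting error only, and no test over samples was possible from the peak lists. Alternatives covered the isolation distance, fold, width, gene set, promoter size, windows, motif definitions and gene flanks. The software was matplotlib 3.10.9, statsmodels 0.14.6, scipy 1.17.1, pandas 2.3.3 and numpy 2.4.6 under Python 3.11.15.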

Additional observations from a re-analysis of the deposited data

How the results depend on the processing

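Each alternative changed 1 choice, and of 90 alternative values 35 stayed within the 95% interval of the value reported (counts within 1.5 times) and 55 moved. These are values of the members alone. The comparison sets were recomputed only for the windows and definitions of the motifs, so how their differences in gene context, distance and clustering depend on isolation distance, fold or width was not tested. With an isolation distance of 500 bp the median distance was 14146 bp to a gene start and 10400 bp to a shared peak, 42.0% of members had another within 100 kb, and the consensus and matrix shares were 4.79% and 24.4%. With 2 kb the distance to a shared peak was 22350 bp, clustering was 26.6% and the matrix share 30.7%. Members with a fold at or above the list median numbered 485, of which 6.60% were at promoters, 6.60% in exons, 54.2% in introns and 32.6% intergenic, with median distances of 20150 bp to a gene start and 21900 bp to a shared peak, 9.07% clustered, 9.69% with the consensus, 37.1% with a matrix match and 6.80% with a G4 motif. Members wider than 100 bp numbered 1123, with 16575 bp to a gene start, 18.3% clustered, 7.39% with the consensus, 34.4% with a matrix match, 9.62% with a G4 motif and a GC median of 54.5%. With protein-coding genes only, 8.31% were promoter, 41.5% intron and 40.9% intergenic peaks, and the gene start was 28641 bp away. With all annotated genes the promoter share was 13.7% and the intergenic share 27.9%, and with a promoter of 2.5 kb the 4 shares were 18.0%, 8.83% (exon), 45.5% (intron) and 27.7% (intergenic). Clustering was 18.6% at 50 kb and 49.4% at 200 kb.

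The consensus share was 2.23% in 100 bp, 8.95% in 500 bp and 28.5% with 1 mismatch, and the matrix share was 7.71% at the score that 0.1% of tiles exceed. For isolated shared and control-only peaks the consensus share was 6.20% and 6.12% in 100 bp and 17.9% and 15.7% in 500 bp. With 1 mismatch it was 40.8% and 41.2%, and the matrix share at that score was 17.5% and 12.1%. The G4 share of the members was 7.08% in the peak itself, 15.5% in 500 bp and 18.4% with loops of up to 12 nt, and GC was 50.6% in 500 bp. Isolated shared and control-only peaks had a G4 motif in 19.8% and 10.7% in 500 bp, and in 20.6% and 9.97% with the longer loops. With the motif inside the peak itself, isolated shared peaks, which are wider, had 18.9% and control-only peaks 5.15%. Gene counts inside the gene only were 1 erythroid, 12 zinc finger and 0 olfactory receptor genes, and within 50 kb they were 5 erythroid, 8 CTCF and cohesin, 2 G4 helicase, 65 zinc finger, 16 olfactory receptor and 4426 protein-coding genes. Leaving out 20 to 24 Mb of chromosome 22, an alternative chosen after seeing the data, gave 31.6% clustered and 29.1% with a matrix match.

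No paired analysis was possible from the peak lists used here, because peaks were called jointly on both replicates, giving 1 list per condition. Leaving out a replicate gives no value for the same reason. The planned share of repeats was not run, since the reference used here does not mark repeats. The lists give no signal below the calling threshold, and whether signal at these peaks exists below it in the other condition was not tested.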
